A study of Homo sapiens with 9 samples.

Results

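The human mitochondrial genome is a small circular chromosome, and all of its genes were taken here: the 37 genes that the deposited table places on chromosome MT, of 58735 genes in all. They comprise 13 genes for protein subunits of the respiratory chain, 2 for ribosomal RNAs and 22 for transfer RNAs. RNA was sequenced from MDA-MB-231, an established breast cancer cell line, wild type in its genotype label and grown in DMEM with serum. The 9 libraries formed 3 groups of 3. TIS CM cells received medium taken from MDA-MB-231 cells brought into therapy-induced senescence by 72 h of nocodazole at 100 ng/ml, a drug that blocks microtubule assembly. Cont CM cells received medium from non-senescent cells of the same line, and No CM cells received unconditioned medium. The exposure is recorded as 72 h in the sample labels but as 48 h in the series' design, a difference that the data do not settle. Nothing states that the numbered replicates were separate cultures, so every p-value below measures the spread between libraries, which may be technical.

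Mitochondrial DNA is transcribed from both strands as long precursors. Transfer RNAs lie between most of the messenger and ribosomal RNA genes and are cut out by RNase P at the 5′ end and by ELAC2 at the 3′ end, which frees the flanking RNAs. Most of the messengers then receive short poly(A) tails from MTPAP, while mature transfer RNAs end in a CCA triplet and carry no such tail. These libraries were prepared from RNA bound to poly-T beads, so the fragments on the transfer RNA genes are not a measure of mature transfer RNA. Steady-state messenger levels depend on the polymerase POLRMT with TFAM and TFB2M, and on the LRPPRC and SLIRP complex that protects the messengers.

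Between 32636708 and 39189036 fragments were recovered per library, and between 22637 and 23295 genes were above 0. All 8 listed genes that MDA-MB-231 is known to express were present, among them VIM at 345–401 FPKM and CD44 at 71.4–92.7 FPKM. FPKM express fragments per length of gene and per size of library. Of the 8 genes listed as low or absent in this line, ESR1, PGR, KRT5 and PTPRC were at or near 0 in every library. CDH1 was at 0.212–1.23 FPKM and PECAM1 at 0.313–0.586 FPKM, while EPCAM at 7.58–10.1 FPKM and GATA3 at 4.67–6.72 FPKM were plainly present in all 9 libraries, against the list.

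The mitochondrial share of the TIS CM libraries lay inside the Cont CM range, and 2 of the 3 No CM libraries had a smaller share than both. The share of all fragments was 2.95%, 3.07% and 3.03% in TIS CM, 2.80%, 3.31% and 2.97% in Cont CM, and 3.15%, 2.17% and 1.85% in No CM. No CM 1 lay among the conditioned medium libraries, and No CM 2 and No CM 3 lay below all 6 of them. The mean shares were 3.02 ± 0.0616% in TIS CM, 3.03 ± 0.259% in Cont CM and 2.39 ± 0.678% in No CM (SD, n = 3 each). The TIS CM minus Cont CM difference was -0.00835 percentage points (two-sided exact permutation test, p = 0.9). The Cont CM minus No CM difference was 0.637 percentage points (exact p = 0.3), and the TIS CM minus No CM difference was 0.628 percentage points (exact p = 0.4). With 3 libraries against 3 this exact permutation test cannot go below p = 0.1. The widest 95% Wilson interval of a library's share was 0.0117 percentage points, which covers counting error only. In bulk RNA of a single cell line, a lower share in every cell and a lower share in some of the cells cannot be told apart.

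**Figure D1:**
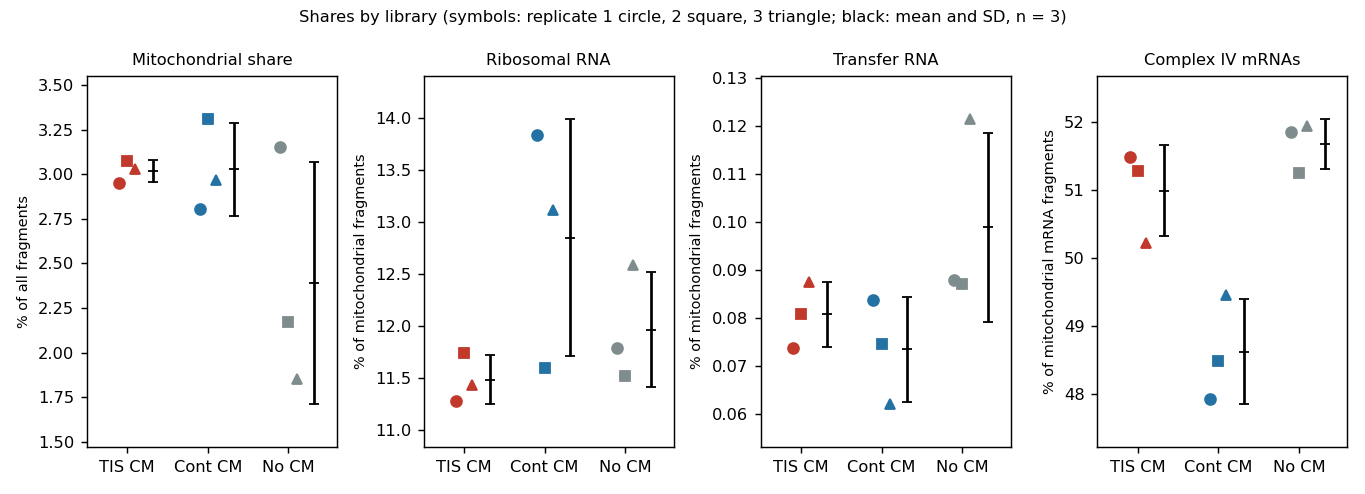
Shares in the 9 libraries, by group. From left to right the vertical axes give mitochondrial fragments as a percentage of all fragments, ribosomal RNA and transfer RNA as percentages of mitochondrial fragments, and complex IV messengers as a percentage of mitochondrial messenger fragments. Points are libraries and black bars are the mean and SD of 3. The No CM libraries are spread most widely in the first panel (1.85–3.15%), and the Cont CM libraries lie lowest in the last (47.9–49.4%).

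Of the 13 messengers, 12 were among the 50 genes with the highest mean FPKM, as were both ribosomal RNAs; MT-ND6 was not. Per length, the order followed the respiratory complexes in part. The highest were the complex IV subunits MT-CO2 (4950 FPKM averaged over the 9 libraries), MT-CO1 (4083 FPKM) and MT-CO3 (3476 FPKM), which form the catalytic core of cytochrome c oxidase. Next came MT-ATP6 (2888 FPKM), a membrane subunit of ATP synthase, and then the complex I subunits MT-ND3 (2560 FPKM), MT-ND4L (2119 FPKM), MT-ND4 (2061 FPKM), MT-ND2 (1548 FPKM) and MT-ND1 (1225 FPKM). MT-CYB, the cytochrome b of complex III, averaged 1117 FPKM. MT-ND5 (894 FPKM), MT-ATP8 (621 FPKM) and MT-ND6 (208 FPKM) were lowest, and the mean of MT-CO2 was 23.8 times that of MT-ND6. MT-ND6, a membrane subunit of complex I, is the one messenger annotated on the minus strand. The part of poly-T capture in the order of the messengers was not tested. MT-CO2, MT-CO1 and MT-CO3 held ranks 1, 2 and 3 in all 9 libraries, and MT-ND5, MT-ATP8 and MT-ND6 held ranks 11, 12 and 13. MT-ND1 and MT-CYB exchanged ranks 9 and 10 in Cont CM 1 and Cont CM 2, so these neighbours were not separated beyond their spread. Ranks 4 to 7 moved as well. MT-ND3 stood above MT-ATP6 in No CM 3, and MT-ND4 stood above MT-ND4L in Cont CM 2 and Cont CM 3. In Cont CM 2, MT-ND4 stood above MT-ND3 too.

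**Figure D2:**
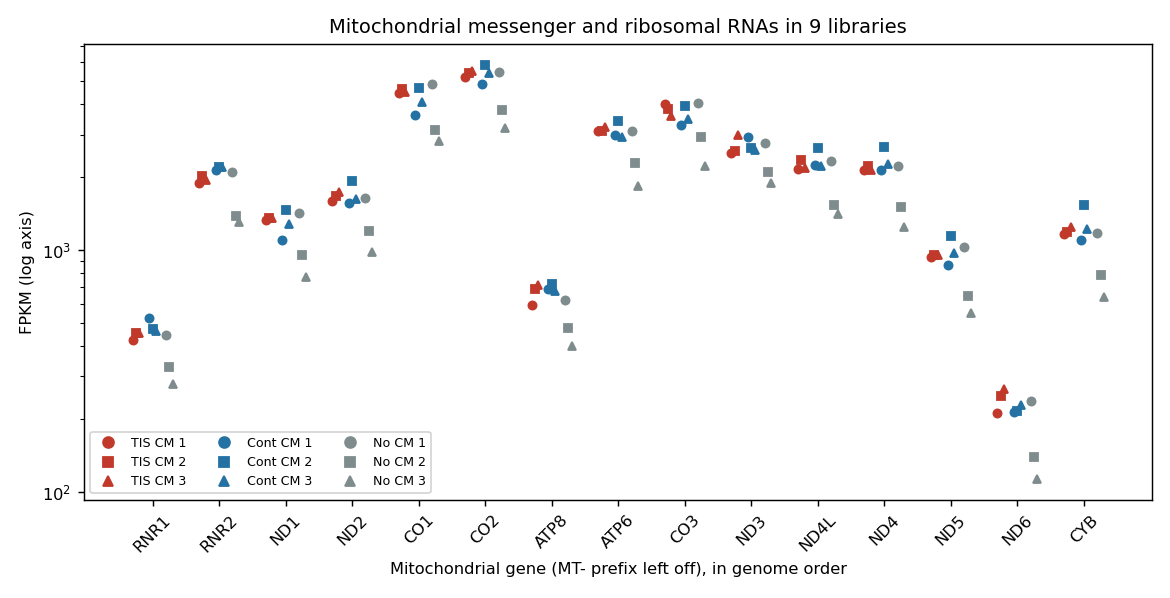
FPKM of the 13 mitochondrial messengers and 2 ribosomal RNAs in each of the 9 libraries, on a log axis, with genes in genome order. Red is TIS CM, blue Cont CM and grey No CM; circles, squares and triangles are replicates 1, 2 and 3. For each gene the grey square and triangle, No CM 2 and No CM 3, lie below all 6 conditioned medium libraries, while the grey circle, No CM 1, does not.

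Of the 37 genes, 32 averaged at least 0.5 FPKM and were tested: the 13 messengers, both ribosomal RNAs and 17 transfer RNA genes. A gene is called at a limma adjusted p under 0.05, adjusted over all 13912 tested genes. The test called 1 of the 32 in TIS CM over Cont CM (MT-TE), where 4.48% of all tested genes were called, 2.9% higher and 1.57% lower. In Cont CM over No CM, 4 were called (MT-ATP8, MT-RNR1, MT-TE and MT-TF), all higher, where 16.3% of all tested genes were called, 7.77% higher and 8.56% lower. A single gene, MT-TE, was called in TIS CM over No CM, where 0.855% of all tested genes were called, 0.403% higher and 0.453% lower. Groups did not overlap for 4 of the 32 in TIS CM over Cont CM, 2 higher (MT-TV and MT-TE) and 2 lower (MT-RNR1 and MT-RNR2), where 28.6% of all tested genes had groups apart, 15% higher and 13.6% lower. In Cont CM over No CM this held for 6, all higher (MT-ATP8, MT-RNR1, MT-RNR2, MT-TF, MT-TQ and MT-TE), where 33.3% of all tested genes had groups apart, 16.6% higher and 16.8% lower. It held for 4 in TIS CM over No CM, all transfer RNA genes and all higher (MT-TV, MT-TQ, MT-TA and MT-TE), where 24.4% of all tested genes had groups apart, 12.7% higher and 11.6% lower. Counting both directions, the share of mitochondrial genes called was thus below that of all genes in TIS CM over Cont CM and in Cont CM over No CM, and above it in TIS CM over No CM, on 1 gene. All of these calls were higher ones; among higher calls alone the share lay close to that of all genes in TIS CM over Cont CM, on 1 gene, and above it in Cont CM over No CM, on 4 genes.

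**Figure D3:**
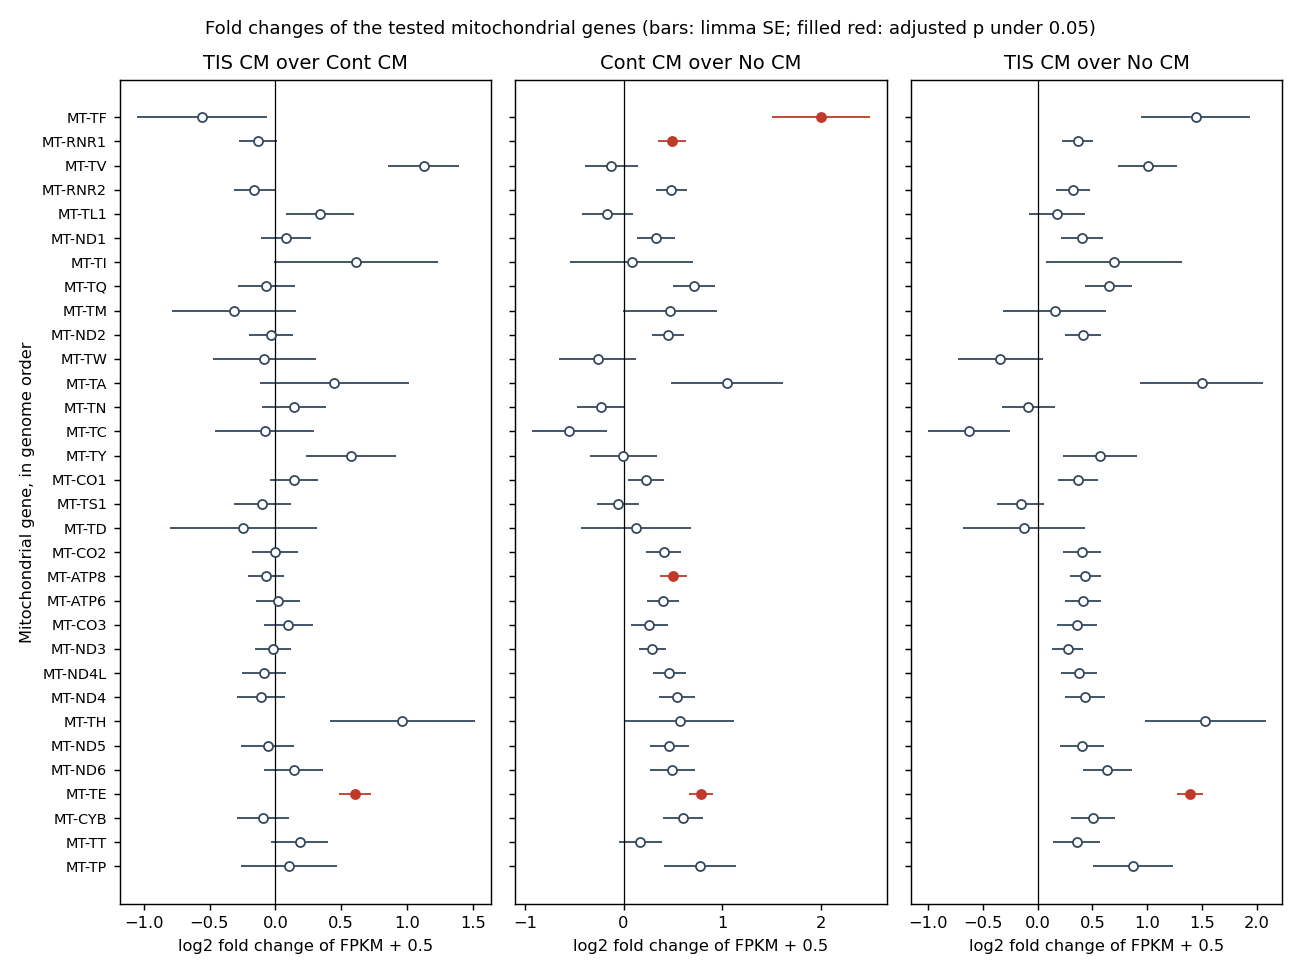
Fold changes of the 32 tested mitochondrial genes on the log2(FPKM + 0.5) scale in TIS CM over Cont CM, Cont CM over No CM and TIS CM over No CM, in genome order; bars are limma standard errors and filled red points have an adjusted p under 0.05. The messengers lie close to 0 in the left panel and to the right of 0 in the others, MT-TE is filled in all 3, and the transfer RNA genes have the widest bars.

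Complex I takes electrons from NADH, and its 7 mitochondrially encoded subunits gave no call in any comparison. MT-ND4, a proton-pumping subunit, was at 2137, 2231 and 2145 FPKM in TIS CM, 2142, 2658 and 2259 FPKM in Cont CM, and 2217, 1512 and 1244 FPKM in No CM. No CM 2 and No CM 3 were the lowest and No CM 1 fell among the Cont CM values, so all groups overlapped. On the log2(FPKM + 0.5) scale used for all fold changes, MT-ND4 differed by -0.11 ± 0.18 (SE) in TIS CM over Cont CM, by 0.54 ± 0.18 in Cont CM over No CM and by 0.43 ± 0.18 in TIS CM over No CM. The limma adjusted p-values were 0.764, 0.0740 and 0.344. Over the 7 subunits the fold changes ranged between -0.11 and 0.14 in TIS CM over Cont CM (limma adjusted p 0.758–0.955), between 0.29 and 0.54 in Cont CM over No CM (0.0740–0.288) and between 0.27 and 0.63 in TIS CM over No CM (0.251–0.430). The top value of the last range was that of MT-ND6, at 212, 249 and 266 FPKM in TIS CM against 238, 139 and 113 FPKM in No CM. No CM 1 lay within the TIS CM range there too.

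Complex III passes electrons to cytochrome c, and MT-CYB is its only subunit of mitochondrial origin. It was at 1161, 1184 and 1239 FPKM in TIS CM, 1104, 1532 and 1226 FPKM in Cont CM, and 1176, 790 and 639 FPKM in No CM. Cont CM 2 was the highest of all 9 libraries and No CM 1 lay among the rest. The fold change was -0.09 ± 0.20 in TIS CM over Cont CM, 0.60 ± 0.20 in Cont CM over No CM and 0.51 ± 0.20 in TIS CM over No CM (limma adjusted p 0.822, 0.0715 and 0.309). The Cont CM over No CM value was the largest of the 13 messengers.

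Complex IV reduces oxygen, and none of its 3 mitochondrial messengers was called. MT-CO1 was at 4436, 4647 and 4489 FPKM in TIS CM, 3607, 4671 and 4088 FPKM in Cont CM, and 4852, 3128 and 2827 FPKM in No CM. MT-CO1 was 1 of 2 genes, with MT-CO3, for which No CM 1 exceeded all 6 conditioned medium libraries. Its fold change was 0.14 ± 0.19 in TIS CM over Cont CM, 0.23 ± 0.19 in Cont CM over No CM and 0.37 ± 0.19 in TIS CM over No CM (limma adjusted p 0.692, 0.449 and 0.426). The most abundant messenger, MT-CO2, differed by 0.41 ± 0.17 in Cont CM over No CM and by the same 0.41 ± 0.17 in TIS CM over No CM (limma adjusted p 0.147 and 0.352).

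Complex V is the ATP synthase, and its small subunit MT-ATP8 was the one messenger that passed the test in a comparison. MT-ATP8 was at 592, 692 and 714 FPKM in TIS CM, 693, 727 and 674 FPKM in Cont CM, and 620, 476 and 401 FPKM in No CM. All Cont CM libraries lay above all No CM libraries, whereas TIS CM 1 lay below No CM 1. MT-ATP8 rose by 0.51 ± 0.14 in Cont CM over No CM (limma adjusted p = 0.0386), and its values were -0.07 ± 0.14 in TIS CM over Cont CM (0.807) and 0.44 ± 0.14 in TIS CM over No CM (0.211). The call was lost in 11 of 21 alternative fits (adjusted p between 0.0075 and 0.120), among them those without TIS CM 2, TIS CM 3, No CM 2, No CM 3 or any of the Cont CM libraries. MT-ATP8 shares bases with MT-ATP6: their reading frames overlap by 46 bases at MT:8527-8572 of GRCh38, plus strand. The sources used here do not say whether fragments in that stretch were counted for either gene. The shared stretch follows because it joins the one called messenger to a neighbour that was not called (MT-ATP6, 0.40 ± 0.16, limma adjusted p = 0.134); the start codon of MT-ATP6 is in capitals.
MT-ATP8 and MT-ATP6 overlap: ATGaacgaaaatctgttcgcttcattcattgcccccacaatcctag

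The 2 ribosomal RNAs build the subunits of the mitochondrial ribosome, MT-RNR1 the small and MT-RNR2 the large. MT-RNR1 was at 424, 454 and 452 FPKM in TIS CM, 523, 471 and 463 FPKM in Cont CM, and 446, 328 and 278 FPKM in No CM. MT-RNR2 was at 1887, 2029 and 1946 FPKM in TIS CM, 2143, 2193 and 2211 FPKM in Cont CM, and 2108, 1381 and 1304 FPKM in No CM. For both genes all Cont CM libraries lay above all TIS CM and all No CM libraries, while TIS CM and No CM overlapped through No CM 1. MT-RNR1 rose by 0.49 ± 0.14 in Cont CM over No CM (limma adjusted p = 0.0451), a call lost in 13 of 21 alternatives (adjusted p between 0.00368 and 0.130), which included leaving out any single library other than No CM 1. MT-RNR2 gave 0.48 ± 0.15 in the same comparison (limma adjusted p = 0.0637). The TIS CM over Cont CM values were -0.13 ± 0.14 for MT-RNR1 and -0.16 ± 0.15 for MT-RNR2 (limma adjusted p 0.630 and 0.579). MT-RNR2 exceeded MT-RNR1 per length by a factor of 4.41 ± 0.0892 in TIS CM, 4.51 ± 0.359 in Cont CM and 4.54 ± 0.283 in No CM (SD, n = 3 each). The part of poly-T capture in the ribosomal RNA levels was not tested.

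All 13 messengers were above 0 in both comparisons with No CM, while the number that passed the test moved with single libraries and with the settings. Of the 13 messenger fold changes, 6 were above 0 in TIS CM over Cont CM, with a median of -0.02, against 0.00345 over all tested genes, and 0 were called; 0 had an unadjusted limma p under 0.05, where 23.4% of all tested genes did, and voom on the recovered fragments also called 0, where it called 7.8% of all tested genes. In Cont CM over No CM, 13 of 13 were above 0 with a median of 0.45, against -0.000559 over all tested genes; 8 had an unadjusted p under 0.05, where 31.3% of all tested genes did, and 1 was called. Voom called 7 of the 13 there (MT-ATP6, MT-ATP8, MT-CO2, MT-CYB, MT-ND2, MT-ND4 and MT-ND4L) and 19.4% of all tested genes. All 13 were above 0 in TIS CM over No CM, with a median of 0.41, against 0.00301 over all tested genes; 8 had an unadjusted p under 0.05, where 13.6% of all tested genes did, and 0 were called, by voom as well, which called 1.76% of all tested genes. The last pair of comparisons share the No CM libraries. The 13 messengers also moved together across the No CM libraries, so counts of them are not counts of independent results. No CM 1 was the highest of its group for all 15 messenger and ribosomal RNA genes, and No CM 3 was the lowest of all 9 libraries for all 15. Without No CM 1, 12 of 13 messengers, all but MT-CO3, and both ribosomal RNAs were called higher in Cont CM over No CM, where 10.6% of all tested genes were then called, with messenger fold changes of 0.45 to 0.84. The messenger count there was 3 among protein-coding and mitochondrial genes, and 0 without the filter on low genes, with only the 2 groups, with the replicate block, under quantile normalization, and without TIS CM 2, TIS CM 3, any one Cont CM library, No CM 2 or No CM 3. Without No CM 1, MT-ND6 and MT-RNR2 were called in addition to MT-TE in TIS CM over No CM, where 0.0935% of all tested genes were then called, and messenger fold changes were 0.43 to 0.94. Without No CM 3 the messenger median was 0.27 in Cont CM over No CM and 0.24 in TIS CM over No CM, and without No CM 2 or No CM 3 the one mitochondrial gene called in either comparison was MT-TE.

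Within the mitochondrial messengers the summed shares of complexes I and IV differed by group, a pattern picked out after the values were seen. Both are shares of the same total, so they are not independent. The 3 complex IV messengers made up 51.0 ± 0.675% of messenger fragments in TIS CM, 48.6 ± 0.768% in Cont CM and 51.7 ± 0.372% in No CM (SD, n = 3 each). The 7 complex I messengers made up 35.4 ± 0.413% in TIS CM, 37.2 ± 0.454% in Cont CM and 35.2 ± 0.0568% in No CM. For both shares the Cont CM libraries overlapped neither other group, and TIS CM and No CM overlapped. The differences were 2.37 percentage points for complex IV and -1.86 for complex I in TIS CM minus Cont CM, and -3.05 and 2.03 in Cont CM minus No CM (exact permutation p = 0.1 for each, the smallest possible). In TIS CM minus No CM they were -0.684 (exact p = 0.3) and 0.170 (exact p = 0.7), and the complex I value changed sign to -0.295 when shares were taken of summed FPKM. By summed FPKM the complex IV shares of TIS CM (44.6–46.4%) and Cont CM (42.5–44.7%) overlapped (difference 1.88 percentage points, exact permutation p = 0.2), while the other separations of Cont CM remained. Unlike the total, these shares placed No CM 1 close to the other No CM libraries.

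MT-CO1 and MT-ND4 carried the largest part of that pattern. MT-CO1 made up 26.0%, 26.5% and 25.8% of messenger fragments in TIS CM, 23.3%, 24.4% and 24.5% in Cont CM, and 27.0%, 25.5% and 27.4% in No CM. MT-ND4 made up 11.2%, 11.4% and 11.0% in TIS CM, 12.4%, 12.4% and 12.1% in Cont CM, and 11.0%, 11.0% and 10.8% in No CM. The Cont CM libraries were lowest for MT-CO1 and highest for MT-ND4 without overlap. In mean share MT-CO3 went with MT-CO1, and MT-ND2, MT-ND4L and MT-ND5 went with MT-ND4. Other members did not follow their complex. MT-CO2 averaged 13.7% in TIS CM, 13.9% in Cont CM and 13.6% in No CM. MT-ND1 averaged 4.81%, 4.64% and 4.79% in that order, and for MT-ND3 and MT-ND6 the Cont CM mean lay between the others. MT-CYB made up 5.10 ± 0.147% in TIS CM, 5.55 ± 0.343% in Cont CM and 4.72 ± 0.135% in No CM, with no overlap in any pair (exact permutation p = 0.1 each). The gap between TIS CM and Cont CM was narrow, with 5.271% the highest in TIS CM and 5.275% the lowest in Cont CM, and by summed FPKM these groups overlapped (exact p = 0.2). The complex V share was 8.53 ± 0.162% in TIS CM, 8.60 ± 0.421% in Cont CM and 8.40 ± 0.326% in No CM, and all groups overlapped.

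Ribosomal RNA made up 11.5 ± 0.235% of mitochondrial fragments in TIS CM, 12.9 ± 1.14% in Cont CM and 11.97 ± 0.557% in No CM. Cont CM 1 was highest at 13.8% and TIS CM 1 lowest at 11.3%, and every pair of groups overlapped. The differences were -1.37 percentage points in TIS CM minus Cont CM (exact permutation p = 0.2), 0.886 in Cont CM minus No CM (exact p = 0.3) and -0.482 in TIS CM minus No CM (exact p = 0.2). The transfer RNA genes took 0.0807 ± 0.00688% of mitochondrial fragments in TIS CM, 0.0735 ± 0.0109% in Cont CM and 0.0989 ± 0.0196% in No CM. All No CM libraries lay above all Cont CM libraries (difference -0.0254 percentage points, exact p = 0.1). TIS CM overlapped both groups (0.00726 against Cont CM, exact p = 0.5, and -0.0182 against No CM, exact p = 0.2). In fragments, the transfer RNA genes together held 775–1006 per library in TIS CM, 721–892 in Cont CM and 673–1000 in No CM.

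Transfer RNAs carry amino acids to the mitochondrial ribosome, and fragments on their genes were few and uneven. Of the 22 genes, 14 had at least 1 fragment in all 9 libraries and 12 averaged 10 or more fragments. The most were on MT-TL1 (172 fragments per library on average), MT-TS1 (162) and MT-TC (125), which serve leucine, serine and cysteine, followed by MT-TT (91.0), the threonine transfer RNA. MT-TG for glycine and MT-TL2 for the other leucine family had 0 fragments in every library, so that 3 counts in 322954299 fragments set an upper limit of 9.29e-07% of all fragments. The 7 genes MT-TV, MT-TI, MT-TG, MT-TR, MT-TH, MT-TS2 and MT-TL2 have no free base between them and the annotated genes on either side. Their median was 0.333 fragments per library (at most 24.7), against 22.8 in the other 15 transfer RNA genes (at least 0.667). All 7 are annotated on the plus strand, while 8 of the other 15 are on the minus strand. The sources used here do not say how fragments that run across a gene border were counted. The part of gene borders and of strand in these levels was not tested. The sequences of the genes with the most fragments, of those without any and of the ones named below are shown 5′ to 3′ in the transfer RNA's sense, from GENCODE 29 transcripts on GRCh38, with the anticodon in capitals.
MT-TL1 (MT:3230-3304, plus strand): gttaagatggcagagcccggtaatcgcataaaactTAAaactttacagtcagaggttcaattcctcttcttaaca
MT-TS1 (MT:7446-7514, minus strand): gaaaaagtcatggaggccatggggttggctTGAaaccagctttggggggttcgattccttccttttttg
MT-TC (MT:5761-5826, minus strand): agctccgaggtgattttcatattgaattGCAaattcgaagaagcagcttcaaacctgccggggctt
MT-TG (MT:9991-10058, plus strand): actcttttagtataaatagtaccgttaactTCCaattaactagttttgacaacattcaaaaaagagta
MT-TL2 (MT:12266-12336, plus strand): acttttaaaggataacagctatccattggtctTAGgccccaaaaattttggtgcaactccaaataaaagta
MT-TE (MT:14674-14742, minus strand): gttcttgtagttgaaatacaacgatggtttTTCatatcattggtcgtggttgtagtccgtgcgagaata
MT-TV (MT:1602-1670, plus strand): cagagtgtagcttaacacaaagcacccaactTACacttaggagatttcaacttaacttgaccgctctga
MT-TF (MT:577-647, plus strand): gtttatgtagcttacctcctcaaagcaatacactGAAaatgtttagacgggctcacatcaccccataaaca

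**Figure D4:**
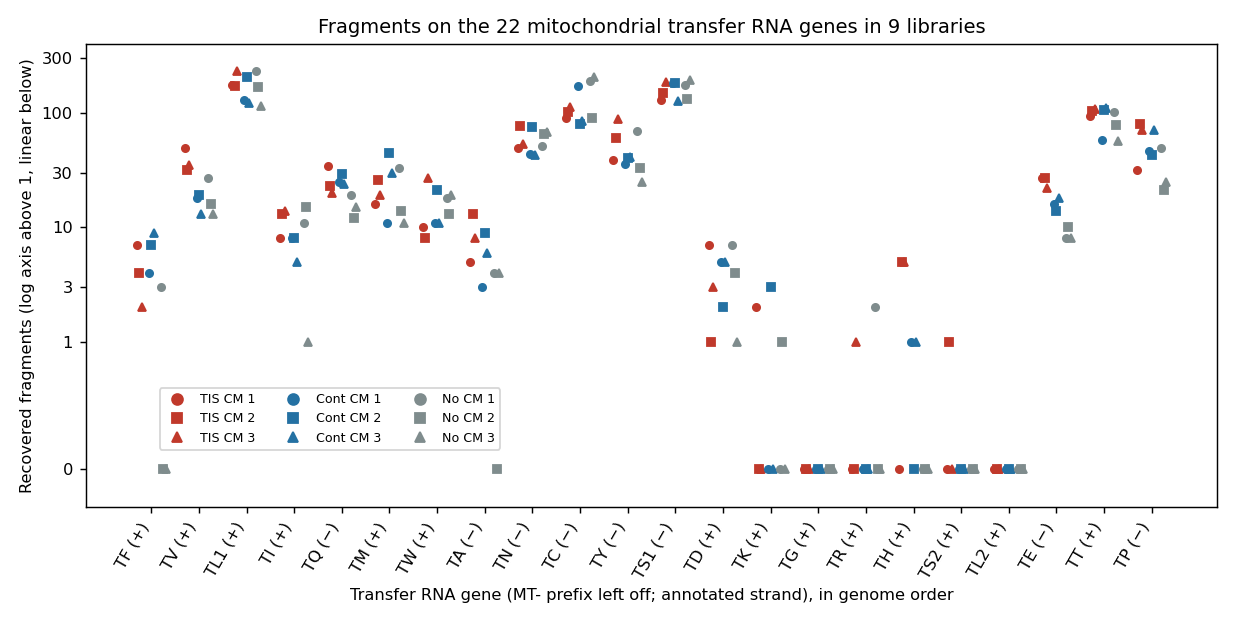
Recovered fragments on each of the 22 transfer RNA genes in the 9 libraries, in genome order with the annotated strand in brackets; the vertical axis is logarithmic above 1 and linear below it. Red is TIS CM, blue Cont CM and grey No CM, with circles, squares and triangles for replicates 1, 2 and 3. MT-TE steps down between groups without overlap, MT-TL1, MT-TC and MT-TS1 have at least 80 fragments in each library, and MT-TG and MT-TL2 are at 0 throughout.

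MT-TE, the glutamate transfer RNA gene, was the one mitochondrial gene called in all 3 comparisons, which share libraries with each other. It had 11.1, 10.8 and 8.41 FPKM in TIS CM, 7.03, 5.66 and 6.65 FPKM in Cont CM, and 3.21, 4.02 and 3.38 FPKM in No CM. These levels stood on 27, 27 and 22 fragments in TIS CM, 16, 14 and 18 in Cont CM, and 8, 10 and 8 in No CM. Every TIS CM library lay above every Cont CM library, and every Cont CM library above every No CM library. MT-TE rose by 0.60 ± 0.12 in TIS CM over Cont CM (limma adjusted p = 0.0307), by 0.78 ± 0.12 in Cont CM over No CM (0.00339) and by 1.39 ± 0.12 in TIS CM over No CM (0.00311). The ratio of summed fragments, scaled for depth, was 1.56 in TIS CM over Cont CM (exact 95% interval 1.08–2.29, counting error only), 1.82 in Cont CM over No CM (1.11–3.06) and 2.85 in TIS CM over No CM (1.80–4.63). These 95% intervals are wider than the limma standard errors of 0.12 imply, so those standard errors and the limma p-values understate the counting error. Voom, which weights by fragment number, gave adjusted p-values of 0.224, 0.136 and 0.0509 and called none of the 3. Over the 21 alternatives the limma adjusted p ranged between 0.0120 and 0.224 for TIS CM over Cont CM, where 8 lost the call, between 0.00084 and 0.136 for Cont CM over No CM, and between 0.00041 and 0.0509 for TIS CM over No CM. The TIS CM over Cont CM call was lost without TIS CM 1, TIS CM 2, Cont CM 2 or Cont CM 3. MT-TE lies on the minus strand between MT-ND6, which it adjoins, and MT-CYB, 4 bases away on the plus strand. Without knowledge of strand in the counting, reads of the 2 strands there cannot be told apart.

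MT-TV, the valine transfer RNA gene, lies between the ribosomal RNA genes, and in human mitochondria its product is also a structural part of the ribosome's large subunit. It had 49, 32 and 35 fragments in TIS CM, 18, 19 and 13 in Cont CM, and 27, 16 and 13 in No CM. All TIS CM libraries lay above all others, and Cont CM and No CM overlapped. The fold change was 1.13 ± 0.27 in TIS CM over Cont CM (limma adjusted p = 0.0507), -0.12 ± 0.27 in Cont CM over No CM (0.800) and 1.01 ± 0.27 in TIS CM over No CM (0.146). MT-TV passed the threshold for TIS CM over Cont CM in 6 of 21 alternatives, with adjusted p between 0.0218 and 0.154. The depth-scaled ratio of fragments was 2.29 (exact 95% interval 1.63–3.26) in TIS CM over Cont CM and 2.02 (1.45–2.83) in TIS CM over No CM. The adjoining MT-RNR1 and MT-RNR2 were lower in every TIS CM library than in any Cont CM library.

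MT-TF, the phenylalanine transfer RNA gene, is the first of the heavy-strand transcript and precedes MT-RNR1. It had 7, 4 and 2 fragments in TIS CM, 4, 7 and 9 in Cont CM, and 3, 0 and 0 in No CM. Every Cont CM library lay above every No CM library, and TIS CM overlapped both. MT-TF rose by 2.00 ± 0.50 in Cont CM over No CM (limma adjusted p = 0.0266), a size that depends on the added 0.5 FPKM since 2 No CM libraries were at 0. From the fragments the ratio was 6.57, with an exact 95% interval of 1.95 to 34.5. The call was lost in 5 of 19 alternatives (adjusted p between 0.00711 and 0.0954), among them those without Cont CM 2, Cont CM 3, No CM 2 or No CM 3.

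The other 14 tested transfer RNA genes were not called in any comparison. MT-TQ for glutamine had 34, 23 and 20 fragments in TIS CM, 25, 29 and 24 in Cont CM, and 19, 12 and 15 in No CM, with No CM below both other groups. Its fold change was 0.72 ± 0.22 in Cont CM over No CM and 0.65 ± 0.22 in TIS CM over No CM (limma adjusted p 0.0520 and 0.222). MT-TC ran the other way: it had 91, 101 and 112 fragments in TIS CM, 171, 80 and 85 in Cont CM, and 191, 90 and 206 in No CM. Its fold change was -0.63 ± 0.38 in TIS CM over No CM (limma adjusted p = 0.523), and its groups overlapped. Over the 17 tested genes the median fold change was 0.14 in TIS CM over Cont CM, with 10 above 0, 0.12 in Cont CM over No CM, with 10 above 0, and 0.57 in TIS CM over No CM, with 12 above 0. Unadjusted limma p-values were under 0.05 for 2, 3 and 7 of the 17 in that order, against 23.4%, 31.3% and 13.6% of all tested genes. MT-TH, the histidine transfer RNA gene, had 0, 5 and 5 fragments in TIS CM, 1, 0 and 1 in Cont CM and 0 in every No CM library, so its fitted fold change has no firm size. MT-TH averaged 0.525 FPKM and passed the 0.5 FPKM filter only through TIS CM, so its higher level there was set by the filter. In TIS CM over No CM it counts among the 12 above 0 and the 7 with an unadjusted limma p under 0.05. It also counts among the 10 above 0 in TIS CM over Cont CM. Among the 5 untested genes MT-TK held 6 fragments over all libraries, MT-TR 3 and MT-TS2 1.

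Poly(A) capture touches this class, so RNAs that normally carry no poly(A) tail were set beside it. Of 18 listed genes for such RNAs, 7 were tested and 0 were called by limma in any comparison, while 0, 1 and 0 had an unadjusted p under 0.05 in TIS CM over Cont CM, Cont CM over No CM and TIS CM over No CM. Their summed level was 190, 224 and 285 FPKM in TIS CM, 325, 153 and 196 FPKM in Cont CM, and 162, 193 and 249 FPKM in No CM, and all groups overlapped. Most of each sum came from RN7SL2 (84.3–226 FPKM) and HIST1H1C (49.0–70.8 FPKM), and 8 or 9 of the 18 genes were above 0 per library. The sum thus describes few genes and not the class. Cont CM 1, the highest for this sum, was also the highest Cont CM library for the ribosomal RNA share. In FPKM it was the highest Cont CM library for 4 of the 12 transfer RNA genes averaging 10 or more fragments (MT-TV, MT-TC, MT-TS1 and MT-TE). An even split among the 3 libraries would give the same count. As a share of mitochondrial fragments, however, the transfer RNA genes were also highest in Cont CM 1. The shares were 0.0838% in Cont CM 1, 0.0746% in Cont CM 2 and 0.0620% in Cont CM 3. The part of poly(A) capture in the transfer RNA values was not tested.

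Minus-strand genes, MT-ND6 and 8 of the transfer RNA genes, held 0.466 ± 0.0486% of mitochondrial fragments in TIS CM, 0.427 ± 0.0435% in Cont CM and 0.415 ± 0.0297% in No CM. All groups overlapped (exact permutation p = 0.4 for TIS CM against Cont CM, 0.8 for Cont CM against No CM and 0.2 for TIS CM against No CM). The 28 genes annotated on the plus strand thus held nearly all of the mitochondrial fragments in every library. With poly-T capture and no stated strand setting in the counting, this is not a measure of transcription from either strand.

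The nuclear genome holds old copies of mitochondrial genes, and 3 of them held nearly all of the fragments on such copies. Of 407 such copies in the table, 23 were above 0 in some library and 4 were tested, and the top 3 held 99.7% of all fragments on copies. MTATP6P1, on chromosome 1, is 98.5% identical to MT-ATP6, with 10 differing bases of 681 and a longest identical run of 141 bases. Part of both is given here, with the 4 bases that differ in this window in capitals, because a read without such a base cannot be assigned to either locus.
MT-ATP6 (MT:8647-8726, plus strand): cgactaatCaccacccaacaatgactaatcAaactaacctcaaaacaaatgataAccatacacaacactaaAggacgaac
MTATP6P1 (chr1:633816-633895, plus strand): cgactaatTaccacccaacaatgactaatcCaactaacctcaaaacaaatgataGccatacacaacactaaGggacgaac

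Fragments on MTATP6P1 came to 9.60%, 10.3% and 9.71% of those on MT-ATP6 in TIS CM, 10.1%, 13.4% and 14.0% in Cont CM, and 9.97%, 9.64% and 10.4% in No CM. Cont CM 2 and Cont CM 3 stood above the other 7 libraries, which lay close together. MTATP6P1 rose by 0.71 ± 0.19 in Cont CM over No CM (limma adjusted p = 0.0336, lost in 10 alternatives at 0.0523–0.111), where MT-ATP6 itself was not called, and differed by -0.31 ± 0.19 in TIS CM over Cont CM (0.361). MTCO1P12, 98.6% identical to MT-CO1, held 1.25–1.92% of that gene's fragments, again highest in Cont CM 3 and Cont CM 2. MTND2P28, 98.2% identical to MT-ND2, held 4.29–5.21%, with Cont CM 2 and Cont CM 3 the lowest. Fragments cannot be divided with certainty between such near-identical loci, so the levels of these 3 pairs are uncertain.

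**Figure D5:**
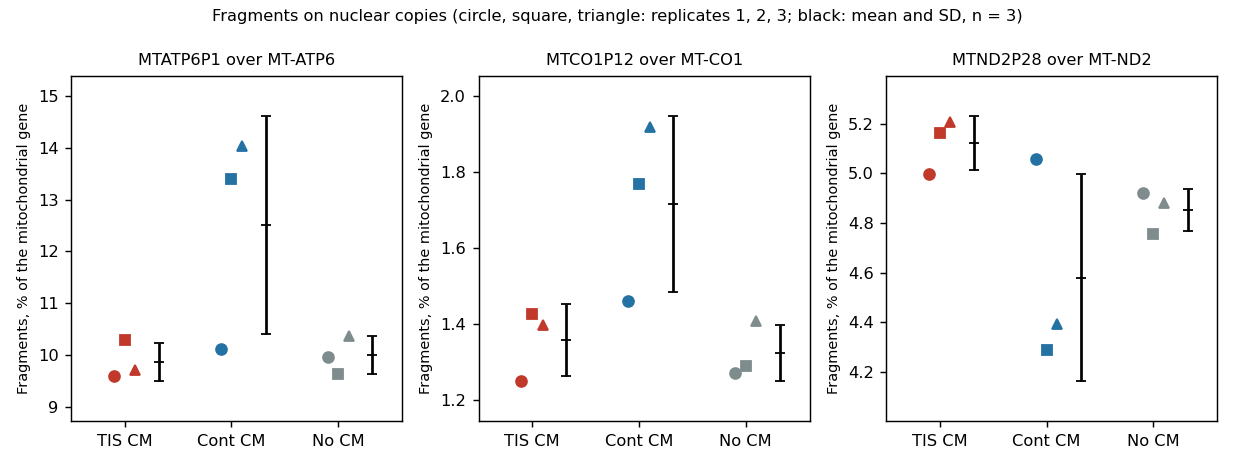
Fragments on the 3 most abundant nuclear copies as a percentage of the fragments on the matching mitochondrial gene, by group. Points are libraries (circle, square and triangle for replicates 1, 2 and 3), and black bars are the mean and SD of 3. Cont CM 2 and Cont CM 3 are the highest libraries for MTATP6P1 (13.4% and 14.0%) and MTCO1P12, and the lowest for MTND2P28.

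Lists of nuclear genes that make, process and use mitochondrial RNA are read here against the shares of all tested genes called, 4.48% in TIS CM over Cont CM, 16.3% in Cont CM over No CM and 0.855% in TIS CM over No CM. Of 19 genes for transcription and replication of mitochondrial DNA, 0 were called by limma in any comparison, and 0 had an unadjusted p under 0.05 in any of them. TFAM, which packages mitochondrial DNA and starts its transcription, was at 23.5 ± 0.186 FPKM in TIS CM, 23.5 ± 1.89 FPKM in Cont CM and 23.2 ± 0.415 FPKM in No CM (SD, n = 3 each). The polymerase POLRMT was at 10.2 ± 0.294 FPKM in TIS CM, 9.11 ± 1.03 FPKM in Cont CM and 9.10 ± 0.652 FPKM in No CM, and the initiation factor TFB2M differed by at most 0.06 on the log2 scale. Of 23 genes for RNA processing and stability, 1 was called in TIS CM over Cont CM and 2 in Cont CM over No CM, where 16.3% of all tested genes were called. HSD17B10, a subunit of mitochondrial RNase P, rose by 0.15 ± 0.04 in TIS CM over Cont CM (limma adjusted p = 0.0494), a call lost in 16 alternatives (0.0501–0.154). In Cont CM over No CM the oligoribonuclease REXO2 rose by 0.26 ± 0.04 (limma adjusted p = 0.00484) and TRNT1, which adds the CCA end to transfer RNAs, rose by 0.29 ± 0.06 (0.0155). LRPPRC, SLIRP, MTPAP, PNPT1 (a subunit of the RNA-degrading complex) and ELAC2 were not called. Of the 23, 0 were called in TIS CM over No CM, with 3 at an unadjusted p under 0.05.

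Of 20 enzymes that modify mitochondrial transfer and ribosomal RNA, 1 was called in Cont CM over No CM, again against 16.3% of all tested genes: NSUN2, a cytosine methyltransferase, rose by 0.19 ± 0.03 (limma adjusted p = 0.00412). Among 22 mitochondrial aminoacyl-transfer RNA synthetases and related enzymes, EARS2, the enzyme that charges the product of MT-TE, was at 4.86 ± 0.199 FPKM in TIS CM, 4.54 ± 0.0902 FPKM in Cont CM and 4.72 ± 0.296 FPKM in No CM (SD, n = 3 each) and was not called. Of 12 translation factors, the release factor MTRF1L rose by 0.24 ± 0.05 in Cont CM over No CM (limma adjusted p = 0.0107). Of 10 regulators of mitochondrial biogenesis, 7 were tested and MYC rose by 0.20 ± 0.06 there (limma adjusted p = 0.0389), a call lost in 11 alternatives (0.0594–0.132). These lists gave 0 further calls in TIS CM over Cont CM and in TIS CM over No CM.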

How the data were processed

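Libraries were made from RNA bound to poly-T beads, per the labels' protocols. The submitters' processing notes name build hg38, HISAT2 2.0.5, fastp, DESeq2 1.20.0 and featureCounts 1.5.0-p3, without roles; strand settings and the treatment of fragments that span genes are not stated there. The authors deposited FPKM per gene and library. Multiplied by gene length, each library's FPKM fell on whole multiples of its own smallest step (tolerance 0.01), so fragments were recovered. Depth was 32636708 to 39189036 fragments per library.

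Genes averaging at least 0.5 FPKM over the 9 libraries (13912) were fitted as log2(FPKM + 0.5), which understates changes of low genes, with limma 3.58.1 (R 4.3.3; trend, group means, all 9 libraries, Benjamini-Hochberg adjustment). Shares were compared by exact permutation tests. Alternatives were other pseudocounts, filters and scalings, voom on recovered fragments, a replicate block, only the groups compared, and each library left out. Sequences are GENCODE 29 transcripts (GRCh38); all 37 coordinates matched the table. The members and gene lists were chosen with earlier results of these data known. Named were all mitochondrial genes, 8 fixed nuclear genes, up to 2 called members per direction of each list, and the 3 most abundant nuclear copies; EARS2 was added after its values were seen. The steps of the fit were also run on simulated counts with the same added spread for every gene and no deviating library. That run does not show how the fit performs with a library such as No CM 1. Figures used matplotlib 3.10.9. One result on a nuclear gene is not reported here.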

Additional observations from a re-analysis of the deposited data

How the results depend on the processing

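The median messenger fold change kept its direction under every alternative run in Cont CM over No CM and TIS CM over No CM, and stood at 0.24 and 0.23 under quantile normalization. Counts of called mitochondrial genes were less stable. In TIS CM over Cont CM the count was 1, with 0 without the filter on low genes, under voom and with only the 2 groups, and 2 with a pseudocount of 1, a minimum of 2 FPKM or only protein-coding and mitochondrial genes; it was 0 to 2 with single libraries left out. In Cont CM over No CM it was 4, with 1 without the filter, 8 among protein-coding and mitochondrial genes, 10 under voom, 2 with a minimum of 10 fragments (an alternative chosen after seeing the data), and 1 to 16 with libraries left out, 16 without No CM 1. In TIS CM over No CM it was 1, with 0 under voom and 1 to 3 with libraries left out. Filters and gene sets change how many genes the adjustment covers; otherwise the cause was not tested.

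Over all genes, 623 were called in TIS CM over Cont CM, 2272 in Cont CM over No CM and 119 in TIS CM over No CM. Without the filter, 207 were called in TIS CM over Cont CM and 46 in TIS CM over No CM; among protein-coding and mitochondrial genes, 980 and 202; under voom, 1085 and 245. With only the 2 groups, 33 were called in TIS CM over Cont CM, 1242 in Cont CM over No CM and 331 in TIS CM over No CM. With libraries left out the counts were 11 to 1084, 1075 to 2775 and 9 to 364 in that order. The mitochondrial share in TIS CM minus Cont CM changed sign, and was -0.00835 in full and -0.120 to 0.134 percentage points with libraries left out (0.0249 without TIS CM 1, 0.134 without Cont CM 2). The complex I share in TIS CM minus No CM was -0.295 by summed FPKM and -0.0437 (without TIS CM 3) to 0.368 with libraries left out, against 0.170; these composition alternatives were chosen after seeing the data.

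Same-numbered libraries did not deviate together more than others. Deviations correlated between -0.187 and 0.0838 for the 9 same-numbered pairs, and between -0.129 and 0.201 for 18 others. Deviations were taken from each group's own mean, so these values cannot settle whether libraries were handled in pairs. The replicate block called 126 genes in TIS CM over Cont CM, 1461 in Cont CM over No CM and 4 in TIS CM over No CM; of mitochondrial genes it called 1 (MT-TV), 3 (MT-TE, MT-TF and MT-TQ) and 1 (MT-TE). Of 165 named fold changes, 12 of 1944 values under other settings and 74 of 1479 with a library left out had the opposite sign, 0 of them with a call. Depth limits the transfer RNA genes most: 10 of the 22 averaged fewer than 10 fragments.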
